A study of Homo sapiens with 24 samples.

Results

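Interferon-stimulated effector genes encode the proteins that cells make in response to interferon and that act on viruses and their RNA, on membranes, on protein tagging and on cell survival. A list of 48 such genes was followed in 4 multiple myeloma cell lines in which the transcription factor IRF4 was knocked down. The genes were taken by symbol from a table of 25341 named genes. Those classed as sensors, receptors, STAT genes or interferon regulatory factors were left out, while IFI16, which also senses DNA, was kept. The lines were MM1R and MM1S, which derive from the same patient, and KMS-12-BM and KMS-12-PE, which derive from bone marrow and pleural effusion of another patient. In each line, 3 libraries came from cells electroporated with a pool of siRNAs against IRF4 and collected at 48 hours (siIRF4), and 3 from cells labelled as DMSO at 0 hours (CTRL). All cells were grown in the same serum-containing medium, total RNA was sequenced, and no control siRNA is named. Loss of IRF4, delivery of siRNA, electroporation, DMSO and the 48 hours of culture therefore cannot be told apart in any siIRF4 against CTRL comparison. Replicates are not said to be separate cultures, so p-values measure the spread between these libraries, which may be technical.

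Type I and type II interferons bind cell-surface receptors, and JAK kinases then phosphorylate STAT proteins. STAT proteins together with IRF9 bind the interferon-stimulated response element (ISRE) in the promoters of effector genes, and interferon regulatory factors, of which IRF4 is one, can bind the same element. In lymphoid cells IRF4 also binds, with an ETS-family partner, a composite of an ETS and an IRF half-site, and plasma cells and myeloma cells express it strongly.

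Levels are the authors' TPM, transcript abundances scaled by gene length and library size, and tests used limma on log2(TPM + 1). Each log2 change is siIRF4 minus CTRL and carries its standard error (SE), and a gene was called when its Benjamini-Hochberg adjusted p over all 15113 tested genes was under 0.05. The added 1 TPM makes the change of genes near or under 1 TPM smaller than their ratio. The 24 libraries held 17.3 to 27.4 M reads assigned to genes, as recovered from the TPM values. In bulk RNA, fewer cells expressing a gene and less RNA of it per cell cannot be told apart.

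IRF4 itself stood at 259.9, 299 and 314 TPM in MM1R siIRF4 libraries, against 376, 365 and 399 TPM in MM1R CTRL libraries, and at 154, 130.4 and 137 TPM in MM1S siIRF4 libraries, against 298, 268 and 285 TPM in MM1S CTRL libraries. It measured 205, 221 and 241 TPM in KMS-12-BM siIRF4 libraries, against 357, 361 and 364 TPM in KMS-12-BM CTRL libraries, and stood at 154, 152 and 160 TPM in KMS-12-PE siIRF4 libraries, against 338, 326 and 318 TPM in KMS-12-PE CTRL libraries. The groups did not overlap in any line, and the siIRF4 mean was lower than the CTRL mean by 23.5% in MM1R and 50.4% in MM1S, by 38.4% in KMS-12-BM, and by 52.6% in KMS-12-PE. An exact permutation test within a line gave p = 0.1, two-sided, which is the smallest p that 3 libraries against 3 allow. SDC1, the plasma cell surface marker CD138, averaged 6.05 TPM in KMS-12-BM CTRL cells and at least 182 TPM in CTRL cells of the other lines. IRF4, on the same list of plasma cell markers, averaged 360.8 TPM in KMS-12-BM CTRL cells and 283.4 to 380.3 TPM in those of the other lines. Of 9 such markers tested, IRF4 among them, 7 fell in MM1R and 7 in MM1S (21.2% and 21.1% of all genes). In KMS-12-BM 6 fell and in KMS-12-PE 6 (6.09% and 22.2% of all genes), and 0 rose in any line by limma on log2(TPM + 1). With voom, a fit of the recovered reads, 1 rose in MM1R and 1 in MM1S, and 0 in the KMS-12 lines. The summed level of these markers in MM1R was 17940 to 19030 TPM in siIRF4 and 15450 to 16790 TPM in CTRL libraries. In MM1S it was also higher in siIRF4, 11550 to 12130 TPM, against 9956 to 10880 TPM in CTRL. In both KMS-12 lines the sum was lower in siIRF4.

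ISRE-like letters were common in the promoters of the effector genes. Promoter windows from RefSeq (GRCh38.p14), running from 250 bases before to 50 bases after a transcript start, were found for 39 of the 48 genes. Searched on both strands, the ISRE core GAAANNGAAA occurred in at least 1 window of 28 of these 39 genes (71.8%), against 4.38% of all 27305 genes in the table. The ETS-IRF composite GGAANNGAAA, which can overlap the ISRE core, occurred in 13 of the 39 (33.3%), against 3.47% of all genes. The gamma-activated site TTCNNNGAA, an element of interferon-gamma responses, occurred in 12 of the 39 (30.8%), against 9.38% of all genes. Genes of the list have 54 windows for 39 genes, and a gene with more windows has more chances of a match. These matches are letters in a window and do not show binding.

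The stretches from 160 bases before to 10 bases after the start are printed for 6 genes that stand for the patterns described further on: 3 that rose in every line with an ISRE core, 1 that shares its element with a neighbour, 1 that fell in both MM1 lines with 3 cores, and 1 that rose in every line with no match. Capitals mark ISRE core and ETS-IRF composite matches on either strand, and each sequence runs 5′ to 3′ on the strand of its gene. IFI6 lies on the minus strand (chr1:27672183-27672352), ISG15 on the plus strand (chr1:1013337-1013506), PARP12 on the minus strand (chr7:140062942-140063111), and DTX3L, HERC5 and NUB1 on the plus strand (chr3:122564178-122564347, chr4:88456959-88457128 and chr7:151341652-151341821).
IFI6: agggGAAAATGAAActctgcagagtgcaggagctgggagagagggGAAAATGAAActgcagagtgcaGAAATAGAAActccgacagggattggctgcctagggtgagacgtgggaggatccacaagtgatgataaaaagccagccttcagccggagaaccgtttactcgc
ISG15: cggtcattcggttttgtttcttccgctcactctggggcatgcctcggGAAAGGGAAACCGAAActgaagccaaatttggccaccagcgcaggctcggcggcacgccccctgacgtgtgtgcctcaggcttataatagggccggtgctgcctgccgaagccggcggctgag
PARP12: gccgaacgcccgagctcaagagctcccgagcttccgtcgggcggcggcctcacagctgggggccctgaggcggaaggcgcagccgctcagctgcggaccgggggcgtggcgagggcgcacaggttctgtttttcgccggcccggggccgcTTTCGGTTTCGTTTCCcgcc
DTX3L: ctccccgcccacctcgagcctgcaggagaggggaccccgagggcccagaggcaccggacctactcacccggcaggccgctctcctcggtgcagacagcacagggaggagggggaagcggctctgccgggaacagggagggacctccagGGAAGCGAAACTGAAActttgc
HERC5: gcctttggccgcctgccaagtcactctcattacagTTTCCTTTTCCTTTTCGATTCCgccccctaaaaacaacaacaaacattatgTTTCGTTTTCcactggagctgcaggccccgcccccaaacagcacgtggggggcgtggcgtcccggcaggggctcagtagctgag
NUB1: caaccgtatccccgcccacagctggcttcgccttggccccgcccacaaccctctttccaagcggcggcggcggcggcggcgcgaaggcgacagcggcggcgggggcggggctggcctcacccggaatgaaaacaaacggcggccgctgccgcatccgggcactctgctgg
IFI6 held 3 separate ISRE cores, beginning 156, 115 and 93 bases before the start. ISG15 held 2 overlapping cores, 113 and 107 bases before the start. PARP12 had its core 10 bases before the start on the opposite strand, overlapping a composite that begins 4 bases before it. In DTX3L, a composite 12 bases before the start ran into a core 6 bases before it. The same 10 bases (chr3:122564332-122564341) lie 41 bases before the start of PARP9, its neighbour on the opposite strand, so that both genes have this element in a promoter window. It spans the start of DTX3L, and a second window of PARP9 held neither match. HERC5 held 3 cores, 125, 119 and 74 bases before the start, and NUB1 held none.

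**Figure D1:**
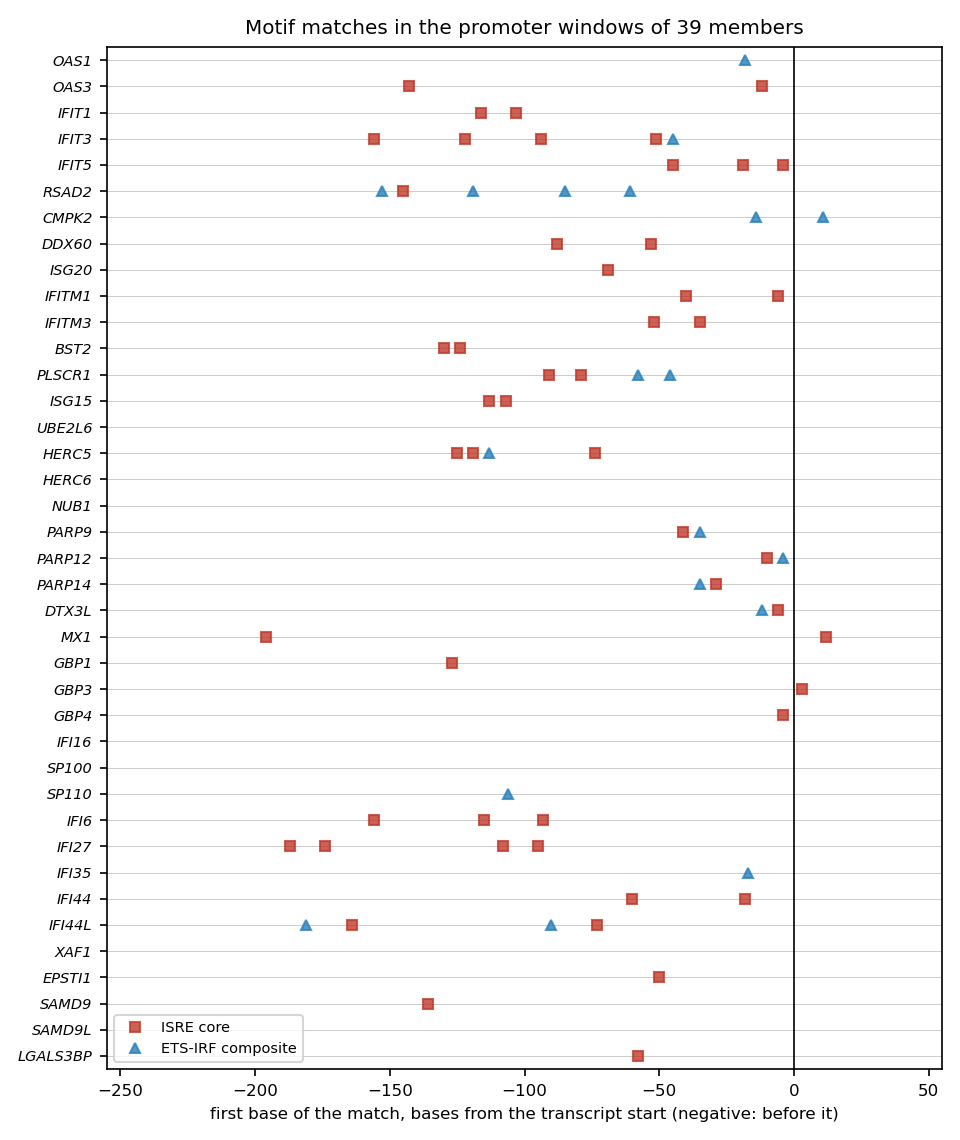
First base of each ISRE core match (red squares) and ETS-IRF composite match (blue triangles) in the promoter windows of 39 effector genes, as bases from the transcript start, with the start as the black line. Of the 39 genes, 28 have at least 1 ISRE core, most of them before the start, while UBE2L6, NUB1, XAF1 and SAMD9L are among those with neither match.

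Most effector genes rose in the MM1 lines and in KMS-12-PE, and fewer were called in KMS-12-BM, where many were near 0 TPM. Of the 48 genes, 42 reached 1 TPM in at least 3 libraries and were tested, among them DDX60, PARP9 and GBP4, which reached it in fewer than 3 CTRL libraries and so could pass chiefly where they were high. The counts below are over these 42 and do not speak for the 6 that did not pass. In MM1R, 31 rose and 3 fell, while 25% of all tested genes rose and 21.2% fell. In MM1S, 30 rose and 3 fell, against 29.1% and 21.1% of all genes. KMS-12-BM had 11 that rose (11.4% of all genes) and 0 that fell (6.09% of all genes). Of all 48 genes, 27 averaged under 0.3 TPM in KMS-12-BM CTRL libraries and 25 in KMS-12-BM siIRF4 libraries. The added 1 TPM leaves such genes little room to be called in either direction. With median-of-ratios scaling, 12 rose and 0 fell in KMS-12-BM, while 1431 of all genes rose and 1423 fell, against 1730 and 920 without it. KMS-12-PE had 23 that rose (15.9% of all genes) and 6 that fell (22.2% of all genes). On average over the lines, 36 rose (33.1% of all genes) and 4 fell (26.5% of all genes).

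The median log2 change of the 42 genes was 0.67 for MM1R, 0.62 for MM1S, 0.13 for KMS-12-BM and 0.29 for KMS-12-PE. Over all tested genes it was 0.026, 0.045, 0.037 and -0.022 in the same lines. In KMS-12-BM, the 0 falls from limma were also 0 at an unadjusted p under 0.05 and 0 with voom on the recovered reads. With median-of-ratios scaling, 1 gene fell there at an unadjusted p under 0.05. Every siIRF4 library lay above every CTRL library for 34 of the 42 genes in MM1R (29.4% of all genes) and 33 in MM1S (32.4% of all genes). The same held for 15 genes in KMS-12-BM (22% of all genes) and 28 in KMS-12-PE (19.7% of all genes). Without KMS-12-PE, whose libraries also differ in markers of other cells as given further on, 36 rose and 3 fell on average over the remaining lines, against 34.1% and 23.5% of all genes.

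**Figure D2:**
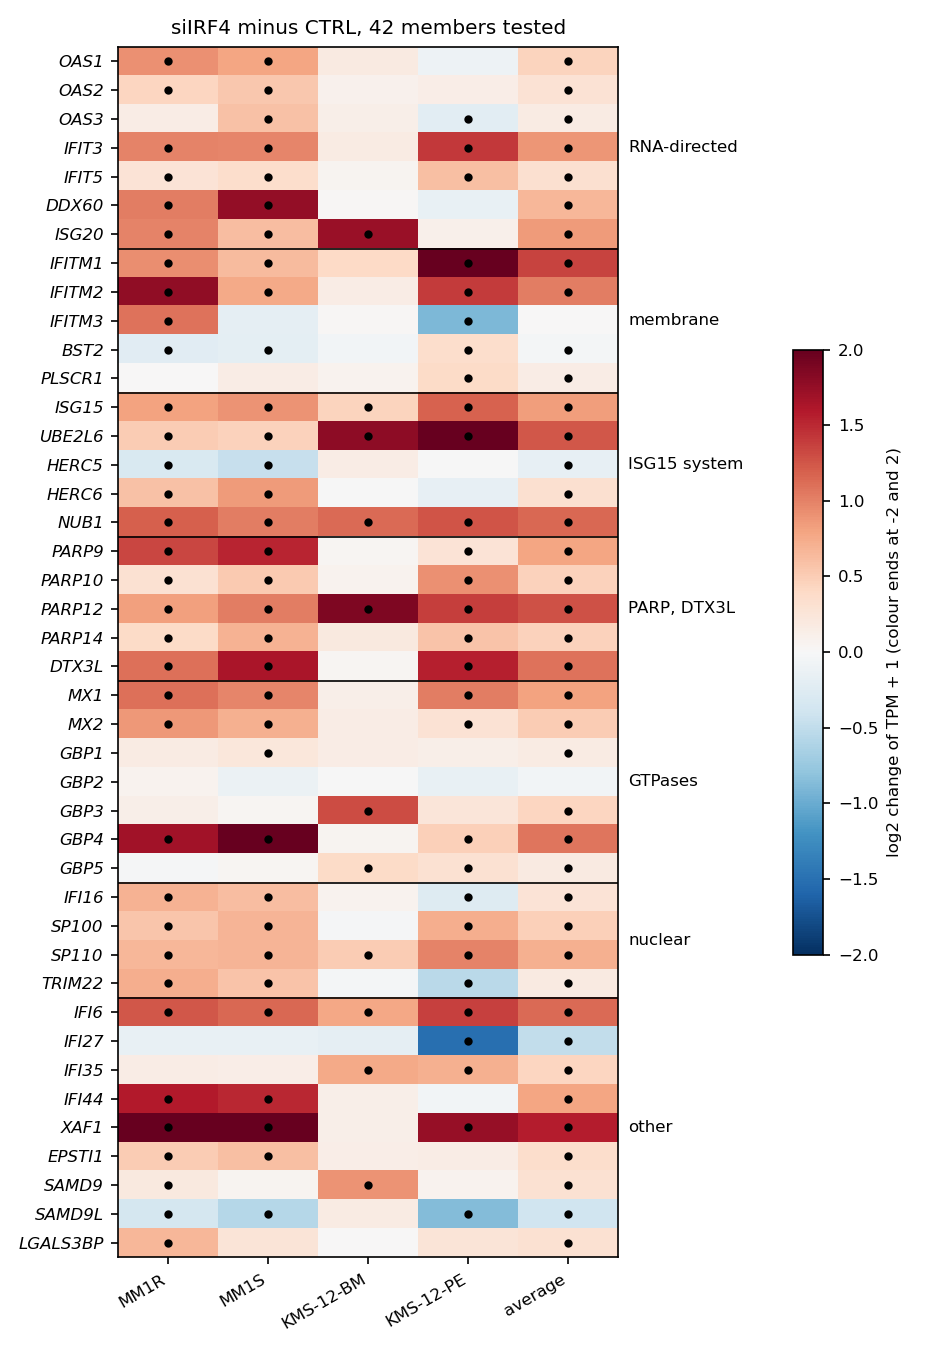
Log2 change (siIRF4 minus CTRL) of the 42 tested effector genes in each line and on average, grouped by role, with red for higher and blue for lower in siIRF4 and black dots for genes called at an adjusted p under 0.05. ISG15, UBE2L6, NUB1, PARP12, SP110 and IFI6 carry a dot and a red field in all 4 lines, and the KMS-12-BM column has the fewest dots.

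Across lines, 6 genes rose in all 4 (2.39% of all genes did): the ubiquitin-like modifier gene ISG15, UBE2L6, NUB1, PARP12, SP110 and IFI6. Another 14 rose in 3 lines and fell in none (6.85% of all genes rose in exactly 3): IFIT3, IFIT5, ISG20, IFITM1, IFITM2, PARP9, PARP10, PARP14, DTX3L, MX1, MX2, GBP4, SP100 and XAF1. Of these 14, ISG20 was the one that rose in KMS-12-BM and not in KMS-12-PE. IFITM3, BST2, OAS3, IFI16 and TRIM22 rose in at least 1 line and fell in at least 1 (9.08% of all genes did). SAMD9L fell in 3 lines, HERC5 in both MM1 lines and IFI27 in KMS-12-PE, and none of these 3 rose in any line. GBP2 was called in no line.

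The RNA-directed antiviral genes rose in the MM1 lines, while ISG20 was the only one called in KMS-12-BM. Of 7 tested, 6 rose in MM1R (25% of all genes) and all 7 in MM1S (29.1% of all genes). In KMS-12-BM 1 rose (11.4% of all genes), which is near that share, and in KMS-12-PE 2 rose and 1 fell (15.9% and 22.2% of all genes). DDX60, a helicase that assists RNA sensing, stood at 3.44, 3.62 and 3.44 TPM in MM1S siIRF4 libraries, against 0.333, 0.392 and 0.25 TPM in MM1S CTRL libraries. The groups did not overlap and the level was 10.8-fold higher (log2 change 1.77 ± 0.08, adjusted p = 2.48e-12). In MM1R, DDX60 stood at 1.83, 1.46 and 1.54 TPM in the siIRF4 libraries, against 0.437, 0.275 and 0.151 TPM in the CTRL libraries (1.02 ± 0.08, adjusted p = 3.46e-09), again with no overlap. In both KMS-12 lines it was under 0.3 TPM in every library and was not called. In KMS-12-PE, voom on recovered reads (-2.3, adjusted p = 0.00712) and a pseudocount of 0.1 TPM (-0.88, adjusted p = 0.0326) called it lower. DDX60 reached 1 TPM in 0 CTRL libraries and passed the filter through the 6 MM1 siIRF4 libraries, so its calls are given as a description. ISG20, an exonuclease that degrades single-stranded RNA, measured 24.9, 18.5 and 17.5 TPM in KMS-12-BM siIRF4 libraries, against 7.07, 4.74 and 4.53 TPM in KMS-12-BM CTRL libraries. All 3 siIRF4 libraries exceeded the CTRL libraries, of which replicate 1 was the highest (1.73 ± 0.12, adjusted p = 5.32e-09). In KMS-12-PE, ISG20 gave 13.7, 12 and 12.6 TPM in the siIRF4 libraries, against 11.2, 11.7 and 12.7 TPM in the CTRL libraries, and these groups overlapped (0.09 ± 0.12, adjusted p = 0.59). Its level in the MM1 lines was more than 100 TPM in every library, and its change was 0.99 ± 0.12 in MM1R and 0.62 ± 0.12 in MM1S.

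The oligoadenylate synthetases, which make the messenger that activates RNase L, differed from each other. OAS1 rose in MM1R (0.92 ± 0.14, adjusted p = 9.76e-06) and MM1S (0.79 ± 0.14, adjusted p = 4.58e-05) but was not called in either KMS-12 line (0.18 ± 0.14 and -0.11 ± 0.14). OAS2 rose by less in MM1R (0.43 ± 0.05) and MM1S (0.53 ± 0.05). OAS3 stood at 5.96, 6.23 and 5.5 TPM in MM1S siIRF4 libraries, against 3.79, 3.62 and 3.45 TPM in MM1S CTRL libraries, without overlap (0.58 ± 0.08, adjusted p = 3.80e-06). In MM1R it gave 7.62, 7.5 and 8.04 TPM in the siIRF4 libraries, against 7.51, 6.39 and 6.77 TPM in the CTRL libraries, where 1 CTRL library exceeded 1 siIRF4 library (0.15 ± 0.08, adjusted p = 0.15). In KMS-12-PE, OAS3 was low in all libraries, at 0.37, 0.19 and 0.151 TPM in the siIRF4 libraries, against 0.549, 0.315 and 0.43 TPM in the CTRL libraries, and these groups overlapped. It was called lower there (-0.21 ± 0.08, adjusted p = 0.0437), and 9 of the 24 fits with 1 library left out did not keep the call, among them those without siIRF4 replicate 2 or 3 or CTRL replicate 1 or 3 of this line (highest adjusted p = 0.197). IFIT3, which binds foreign RNA together with its relatives, averaged 2.88 ± 0.195 TPM in KMS-12-PE siIRF4 libraries and 0.479 ± 0.337 TPM in KMS-12-PE CTRL libraries (SD, n = 3 each) and rose there (1.41 ± 0.15, adjusted p = 1.80e-07). It also rose in MM1R (0.99 ± 0.15) and MM1S (0.98 ± 0.15), and IFIT5 rose in the same 3 lines by 0.27 to 0.61 on the log2 scale. The MM1R call of IFIT5 was lost without MM1R siIRF4 replicate 1 (adjusted p = 0.102) or CTRL replicate 2 (adjusted p = 0.0795).

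Among the membrane restriction genes, the IFITM genes, whose products hinder fusion of viral and cell membranes, diverged between lines. IFITM1 stood at 235, 227 and 219 TPM in KMS-12-PE siIRF4 libraries, against 22.4, 20.7 and 16.8 TPM in KMS-12-PE CTRL libraries. The groups lay far apart, 11.4-fold by their means, and this was the largest rise of any effector gene in any line on the log2(TPM + 1) scale, though not by ratio of means (3.45 ± 0.18, adjusted p = 3.72e-11). In KMS-12-BM, where IFITM1 was already high, it gave 217, 203 and 192 TPM in the siIRF4 libraries, against 148, 161 and 154 TPM in the CTRL libraries. Those groups did not overlap, but the change was not called (0.40 ± 0.18, adjusted p = 0.131), while voom on recovered reads (adjusted p = 6.56e-07) and a fit of this line alone (adjusted p = 0.00431) called it. In MM1R and MM1S, IFITM1 rose by 0.93 ± 0.18 and 0.63 ± 0.18 on the log2 scale, with CTRL means of 4.38 and 3.72 TPM, and a fit of MM1S alone did not call it (adjusted p = 0.0592). IFITM2 stood at 10.9, 14.4 and 8.73 TPM in MM1R siIRF4 libraries, against 1.89, 2.78 and 3.14 TPM in MM1R CTRL libraries. All siIRF4 libraries were above all CTRL libraries (1.77 ± 0.18, adjusted p = 2.36e-07). It also rose in MM1S (0.76 ± 0.18) and KMS-12-PE (1.40 ± 0.18). The IFITM genes are near-identical neighbours, and how reads shared between them were counted is not given in the sources used here, so their split is uncertain.

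IFITM3 changed in opposite directions. In MM1R it stood at 1.62, 2.1 and 0.382 TPM in the siIRF4 libraries, against 0, 0.179 and 0 TPM in the CTRL libraries, so that it was near 0 in CTRL and the siIRF4 libraries lay above them (1.08 ± 0.21, adjusted p = 2.68e-04). In KMS-12-PE it stood at 5.07, 5.53 and 7.05 TPM in the siIRF4 libraries, against 13.3, 10.9 and 11.1 TPM in the CTRL libraries, with every siIRF4 library below every CTRL library (-0.89 ± 0.21, adjusted p = 0.0021; adjusted p = 0.079 with a pseudocount of 0.1 TPM). MM1S, with 6.92 to 10.8 TPM in siIRF4 and 9.91 to 11.1 TPM in CTRL, was not called (-0.19 ± 0.21). BST2, or tetherin, which holds budding virus at the cell surface and is a known surface antigen of myeloma cells, was the most abundant effector mRNA in every group. It stood at 636, 618 and 652 TPM in MM1R siIRF4 libraries, against 759, 751 and 724 TPM in MM1R CTRL libraries, and at 788, 791 and 822 TPM in MM1S siIRF4 libraries, against 909, 928 and 926 TPM in MM1S CTRL libraries. Neither pair of groups overlapped, and BST2 fell in MM1R (-0.23 ± 0.03, adjusted p = 8.59e-07) and in MM1S (-0.20 ± 0.03, adjusted p = 3.57e-06). In KMS-12-PE it gave 432, 436 and 421 TPM in the siIRF4 libraries, against 337, 342 and 334 TPM in the CTRL libraries, and rose (0.34 ± 0.03, adjusted p = 4.00e-09). Its average of -0.03 ± 0.01 lost its call in 12 of 24 fits with 1 library left out. PLSCR1, a phospholipid scramblase, rose in KMS-12-PE (0.38 ± 0.07, adjusted p = 2.12e-04) and was not called in the other lines.

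The group of ISG15 and ubiquitin-like protein genes contained 3 of the genes that rose in all 4 lines, and also a gene that fell. ISG15 is conjugated to proteins by a cascade in which UBE2L6 is the conjugating enzyme and HERC5 the human ligase. UBE2L6 stood at 71.6, 69.8 and 65.9 TPM in KMS-12-PE siIRF4 libraries, against 14.2, 14.2 and 14.5 TPM in KMS-12-PE CTRL libraries, a 4.82-fold difference of means. In KMS-12-BM it stood at 32.8, 26.5 and 24.1 TPM in the siIRF4 libraries, against 8.06, 5.89 and 8.09 TPM in the CTRL libraries. The groups were separate in both lines (KMS-12-PE 2.19 ± 0.09, adjusted p = 1.52e-13; KMS-12-BM 1.79 ± 0.09, adjusted p = 3.76e-11). In the MM1 lines, where its CTRL level was about 100 TPM, the rise was smaller, 0.51 ± 0.09 in MM1R and 0.46 ± 0.09 in MM1S. Its siIRF4 level in KMS-12-PE, 65.9 to 71.6 TPM, remained under the MM1 CTRL level of 96.0 to 111 TPM.

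ISG15 stood at 138, 132 and 136 TPM in KMS-12-PE siIRF4 libraries, against 60, 56.5 and 60.4 TPM in KMS-12-PE CTRL libraries, and at 126, 109 and 107 TPM in KMS-12-BM siIRF4 libraries, against 84.9, 76.6 and 86.9 TPM in KMS-12-BM CTRL libraries. No groups overlapped, and the log2 change was 1.19 ± 0.11 for KMS-12-PE and 0.45 ± 0.11 for KMS-12-BM (adjusted p = 0.00556). In MM1R and MM1S it rose by 0.81 ± 0.11 and 0.89 ± 0.11. NUB1, which directs the ubiquitin-like proteins NEDD8 and FAT10 to the proteasome, changed by 1.19 ± 0.07 in MM1R, 1.02 ± 0.07 in MM1S and 1.26 ± 0.07 in KMS-12-PE, where its CTRL mean was 18.9 to 27.3 TPM. In KMS-12-BM it stood at 3.15, 2.62 and 2.72 TPM in the siIRF4 libraries, against 0.733, 0.757 and 0.755 TPM in the CTRL libraries, with no overlap (1.13 ± 0.07, adjusted p = 2.00e-10). By ratio of means NUB1 was 3.78-fold higher in that line and 2.05-fold to 2.46-fold higher in the others.

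HERC5 went the other way from the genes it works with. It stood at 25.4, 26.9 and 26.3 TPM in MM1R siIRF4 libraries, against 34.7, 30.4 and 32.9 TPM in MM1R CTRL libraries, and at 34.3, 33.2 and 30.6 TPM in MM1S siIRF4 libraries, against 47.1, 44.1 and 45.5 TPM in MM1S CTRL libraries. In both lines every siIRF4 library was below every CTRL library (MM1R -0.31 ± 0.08, adjusted p = 0.00341; MM1S -0.47 ± 0.08, adjusted p = 4.57e-05). In the KMS-12 lines HERC5 was under 0.5 TPM in every library and was not called. Its fall on average (-0.16 ± 0.04) rests on the MM1 lines, and with a pseudocount of 0.1 TPM the average was 0.0117 (0.181 with voom), neither called. HERC6, a neighbour of HERC5 that serves as the ISG15 ligase in mouse, rose in MM1R (0.59 ± 0.08, adjusted p = 4.96e-06) and MM1S (0.86 ± 0.08, adjusted p = 2.32e-08) instead. In KMS-12-PE, HERC6 was at most 0.283 TPM and was not called. There voom on recovered reads (-1.51, adjusted p = 0.0454) and a pseudocount of 0.1 TPM (-0.875, adjusted p = 0.012) called it lower.

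**Figure D3:**
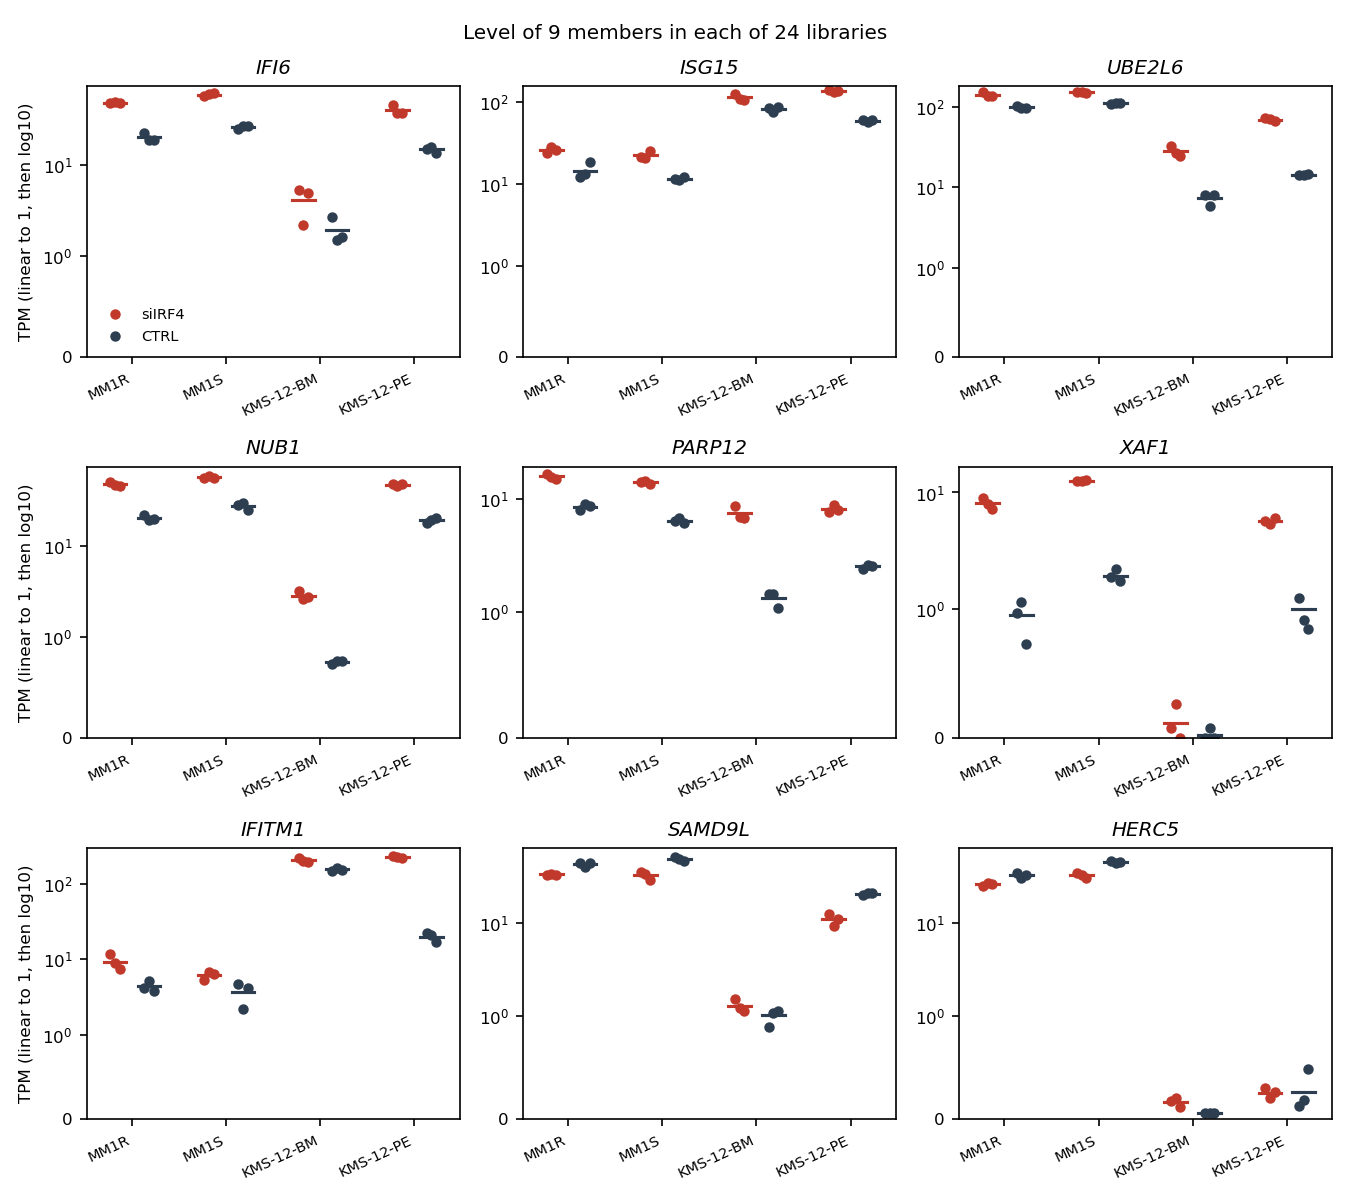
TPM of 9 effector genes in each of the 24 libraries, with siIRF4 (red) left of CTRL (dark) in each line, points for libraries and bars for means of 3, on an axis that is linear up to 1 TPM and log10 above it. IFI6, ISG15, UBE2L6, NUB1 and PARP12 are higher in siIRF4 in every line, IFITM1 rises most in KMS-12-PE, and SAMD9L and HERC5 are lower in siIRF4 in both MM1 lines.

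All 5 ADP-ribosyltransferase genes and partner rose in MM1R, MM1S and KMS-12-PE (25%, 29.1% and 15.9% of all genes). PARP12 alone of them was called in KMS-12-BM (11.4% of all genes rose there). PARP12, which modifies proteins with single ADP-ribose units and is drawn to stress granules, measured 8.76, 6.99 and 6.88 TPM in KMS-12-BM siIRF4 libraries, against 1.45, 1.44 and 1.09 TPM in KMS-12-BM CTRL libraries. All siIRF4 libraries exceeded 6 TPM and all CTRL libraries were under 1.5 TPM (1.87 ± 0.08, adjusted p = 1.40e-12). In KMS-12-PE it gave 7.8, 8.87 and 8.09 TPM in the siIRF4 libraries, against 2.43, 2.64 and 2.59 TPM in the CTRL libraries, without overlap (1.38 ± 0.08, adjusted p = 1.97e-11). The rise was 0.82 ± 0.08 in MM1R and 1.03 ± 0.08 in MM1S.

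PARP9 and DTX3L form a complex in which DTX3L is the ubiquitin ligase, and both have the element described above in a promoter window. DTX3L stood at 20.2, 21.6 and 20.5 TPM in MM1S siIRF4 libraries, against 6.14, 6.7 and 5.19 TPM in MM1S CTRL libraries, and at 13.2, 12.3 and 12.7 TPM in MM1R siIRF4 libraries, against 5.32, 5.38 and 5.37 TPM in MM1R CTRL libraries. No groups overlapped (MM1S 1.64 ± 0.08, adjusted p = 4.49e-12; MM1R 1.11 ± 0.08, adjusted p = 1.01e-09). In KMS-12-PE, DTX3L stood at 4.23, 3.31 and 3.9 TPM in the siIRF4 libraries, against 0.576, 0.801 and 0.549 TPM in the CTRL libraries (1.55 ± 0.08, adjusted p = 5.38e-12), again apart. PARP9 rose by 1.52 ± 0.09 in MM1S and 1.34 ± 0.09 in MM1R, but in KMS-12-PE, where it was at 0.305 to 0.615 TPM in siIRF4 and 0.159 to 0.290 TPM in CTRL, by 0.27 ± 0.09. That last call was lost without KMS-12-PE siIRF4 replicate 1 or 3 or CTRL replicate 1 or 3 (highest adjusted p = 0.128). In KMS-12-BM both genes were under 0.15 TPM in all libraries. PARP9 reached 1 TPM in 6 siIRF4 libraries and 2 CTRL libraries, so its calls are given as a description. PARP10, a mono-ADP-ribosyltransferase, rose most in KMS-12-PE (0.92 ± 0.07, adjusted p = 9.38e-10), and PARP14, a large macrodomain member of the family, rose by 0.39 to 0.69 in the 3 lines.

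The GTPase genes did not move together. MX1, which encloses viral ribonucleoproteins, rose in MM1R (1.10 ± 0.08, adjusted p = 8.00e-10), MM1S (0.97 ± 0.08, adjusted p = 3.06e-09) and KMS-12-PE (1.02 ± 0.08, adjusted p = 3.03e-09), and was under 0.5 TPM in all KMS-12-BM libraries. MX2, which acts at the nuclear pore, rose in the same 3 lines by 0.86 ± 0.10, 0.71 ± 0.10 and 0.28 ± 0.10, the last of which was lost without siIRF4 replicate 1 or 3 or CTRL replicate 1 or 3 of KMS-12-PE. Of the guanylate-binding proteins, which attack pathogen-containing vacuoles, GBP4 stood at 6.81, 6.52 and 5.92 TPM in MM1S siIRF4 libraries, against 0.721, 0.84 and 0.625 TPM in MM1S CTRL libraries. In MM1R, GBP4 stood at 2.74, 2.62 and 2.54 TPM in the siIRF4 libraries, against 0.138, 0.0777 and 0.187 TPM in the CTRL libraries. Both pairs of groups were apart, by 8.81-fold and 19.6-fold (MM1S 2.10 ± 0.09, adjusted p = 3.32e-13; MM1R 1.68 ± 0.09, adjusted p = 1.07e-11). In KMS-12-PE, GBP4 stood at 0.589, 0.337 and 0.441 TPM in the siIRF4 libraries, against 0.0523, 0.0537 and 0.0344 TPM in the CTRL libraries, 9.74-fold apart and also without overlap (0.47 ± 0.09, adjusted p = 1.79e-04). GBP4 reached 1 TPM in 0 CTRL libraries and passed the filter through the 6 MM1 siIRF4 libraries, so its calls are given as a description. GBP3 rose in KMS-12-BM, where it stood at 4.87, 3.56 and 2.94 TPM in the siIRF4 libraries, against 0.939, 0.943 and 0.849 TPM in the CTRL libraries without overlap (1.31 ± 0.10, adjusted p = 4.88e-09), while its MM1 level of 24.8 to 34.2 TPM was not called as changed. In KMS-12-PE, GBP3 was not called, but voom on recovered reads (0.316, adjusted p = 0.0179) and median-of-ratios scaling (0.263, adjusted p = 0.0272) called it higher. GBP5 measured 5.87 to 7.10 TPM in KMS-12-BM siIRF4 libraries, against 4.41 to 5.26 TPM in KMS-12-BM CTRL libraries (0.39 ± 0.08, adjusted p = 0.00174), and was under 0.5 TPM in all libraries of the other lines, among which KMS-12-PE was called higher (0.30 ± 0.08). With a pseudocount of 0.1 TPM the KMS-12-BM call was lost (adjusted p = 0.354). GBP1 was called in MM1S (0.23 ± 0.09), and lost that call without siIRF4 replicate 1 or 2 or CTRL replicate 1 or 3.

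Nuclear effector genes all rose in the MM1 lines (25% of all genes in MM1R and 29.1% in MM1S) and were divided in KMS-12-PE. SP110, a nuclear body protein, stood at 30.8, 29.9 and 30.2 TPM in KMS-12-PE siIRF4 libraries, against 15.6, 14.4 and 14.1 TPM in KMS-12-PE CTRL libraries, a clear separation (1.0 ± 0.09, adjusted p = 1.44e-08). Its rise in KMS-12-BM (0.50 ± 0.09, adjusted p = 3.24e-04) was set against a CTRL mean of 0.640 TPM, and a fit of that line alone gave adjusted p = 0.0505. SP100, the defining protein of these bodies, rose in MM1R (0.55 ± 0.04), MM1S (0.68 ± 0.04) and KMS-12-PE (0.73 ± 0.04) and was not called in KMS-12-BM (-0.02 ± 0.04). IFI16, a sensor and restriction factor of nuclear DNA, stood at 355, 321 and 318 TPM in MM1R siIRF4 libraries, against 211, 202 and 202 TPM in MM1R CTRL libraries (0.69 ± 0.05, adjusted p = 2.65e-10). It rose in MM1S as well (0.62 ± 0.05), whereas KMS-12-PE gave 67.5, 59.9 and 65.3 TPM in the siIRF4 libraries, against 81.1, 74.3 and 76 TPM in the CTRL libraries. Neither line's groups overlapped, and in KMS-12-PE the gene fell (-0.26 ± 0.05, adjusted p = 1.36e-04). TRIM22, a ubiquitin ligase that restricts viral transcription, was low throughout. It stood at 0.988, 0.804 and 0.742 TPM in MM1R siIRF4 libraries, against 0.0343, 0.116 and 0.186 TPM in MM1R CTRL libraries, at 2.03, 1.91 and 1.8 TPM in MM1S siIRF4 libraries, against 1.18, 0.814 and 0.915 TPM in MM1S CTRL libraries, and at 0.265, 0.70 and 0.714 TPM in KMS-12-PE siIRF4 libraries, against 1.14, 1.39 and 1.2 TPM in KMS-12-PE CTRL libraries. The gene rose in MM1R (0.73 ± 0.11, adjusted p = 9.50e-06), rose in MM1S (0.57 ± 0.11, adjusted p = 1.42e-04), and was lower in siIRF4 libraries of KMS-12-PE (-0.54 ± 0.11, adjusted p = 4.47e-04), with no overlap in any of these lines.

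Among the other effector genes, XAF1 rose in 3 lines. It binds the apoptosis inhibitor XIAP and counters it. XAF1 stood at 12.5, 12.5 and 12.8 TPM in MM1S siIRF4 libraries, against 1.86, 2.19 and 1.73 TPM in MM1S CTRL libraries, and at 8.91, 7.96 and 7.25 TPM in MM1R siIRF4 libraries, against 0.967, 1.15 and 0.728 TPM in MM1R CTRL libraries. The groups were far apart, 6.54-fold in MM1S and 8.47-fold in MM1R (MM1S 2.22 ± 0.10, adjusted p = 1.55e-12; MM1R 2.22 ± 0.10, adjusted p = 2.10e-12). In KMS-12-PE, XAF1 stood at 5.64, 5.35 and 6.03 TPM in the siIRF4 libraries, against 1.24, 0.91 and 0.845 TPM in the CTRL libraries, 5.68-fold apart and without overlap (1.74 ± 0.10, adjusted p = 1.61e-11). In KMS-12-BM it was under 0.3 TPM in every library (0.11 ± 0.10).

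IFI6, a small membrane protein reported to restrain apoptosis, stood at 46.5, 37.2 and 37.2 TPM in KMS-12-PE siIRF4 libraries, against 15.2, 16 and 13.5 TPM in KMS-12-PE CTRL libraries (1.37 ± 0.19, adjusted p = 1.72e-05). It rose by a like amount in MM1R (1.24 ± 0.19) and MM1S (1.15 ± 0.19). In KMS-12-BM it stood at 5.36, 2.21 and 4.95 TPM in the siIRF4 libraries, against 2.7, 1.5 and 1.61 TPM in the CTRL libraries, and these groups overlapped, with siIRF4 replicate 2 under CTRL replicate 1. The KMS-12-BM call (0.78 ± 0.19, adjusted p = 0.00806) was lost without siIRF4 replicate 1 (adjusted p = 0.056) and in a fit of that line alone (adjusted p = 0.158). IFI44 averaged 15.6 ± 0.251 TPM in MM1R siIRF4 libraries and 4.57 ± 0.752 TPM in MM1R CTRL libraries, and 15.9 ± 0.185 TPM in MM1S siIRF4 libraries and 4.95 ± 0.73 TPM in MM1S CTRL libraries (SD, n = 3 each). It rose in both (MM1R 1.58 ± 0.12, adjusted p = 6.16e-10; MM1S 1.51 ± 0.12, adjusted p = 7.59e-10) and was not called in KMS-12-PE (-0.05 ± 0.12). EPSTI1 rose in MM1R (0.51 ± 0.08) and MM1S (0.60 ± 0.08), IFI35 in both KMS-12 lines (0.75 ± 0.08 and 0.71 ± 0.08), and LGALS3BP, a secreted glycoprotein, in MM1R (0.67 ± 0.11).

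The neighbouring paralogs SAMD9 and SAMD9L, which both inhibit translation, behaved differently. SAMD9L stood at 12.6, 9.25 and 11 TPM in KMS-12-PE siIRF4 libraries, against 19.9, 20.9 and 20.9 TPM in KMS-12-PE CTRL libraries, and at 35.8, 33.5 and 29.2 TPM in MM1S siIRF4 libraries, against 51.9, 48.6 and 46.2 TPM in MM1S CTRL libraries. Each siIRF4 library was below each CTRL library (KMS-12-PE -0.86 ± 0.09, adjusted p = 1.07e-07; MM1S -0.56 ± 0.09, adjusted p = 1.50e-05). In MM1R it gave 33.1, 34 and 32.8 TPM in the siIRF4 libraries, against 44.2, 39.9 and 44 TPM in the CTRL libraries, also lower (-0.35 ± 0.09, adjusted p = 0.00243), and KMS-12-BM, near 1 TPM, was not called (0.17 ± 0.09). SAMD9 rose in KMS-12-BM, where it stood at 8.73, 7.96 and 7.14 TPM in the siIRF4 libraries, against 4.1, 3.69 and 3.63 TPM in the CTRL libraries (0.89 ± 0.08, adjusted p = 6.68e-08). It was called in MM1R by a small margin (0.20 ± 0.08), a call lost without MM1R siIRF4 replicate 1 or 2 or CTRL replicate 2. IFI27, a mitochondrial and nuclear envelope protein, stood at 1.43, 2.2 and 1.71 TPM in KMS-12-PE siIRF4 libraries, against 6.8, 6.98 and 6.7 TPM in KMS-12-PE CTRL libraries. The groups were separate and the fall was the largest of any effector gene on the log2(TPM + 1) scale (-1.50 ± 0.27, adjusted p = 2.01e-04).

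The genes that rose and fell in KMS-12-PE did so in libraries that also differed in markers of other cells. Summed over 6 stromal markers, such as DCN and COL1A1, the level was 19.7 to 27.3 TPM in KMS-12-PE siIRF4 libraries and 58.0 to 87.8 TPM in CTRL libraries. All 6 markers fell (22.2% of all genes did in this line). Summed over 6 myeloid and plasmacytoid markers it was 17.7 to 24.3 TPM in siIRF4 and 53.8 to 70.0 TPM in CTRL. Nearly all of that sum was S100A8, and LYZ in siIRF4 and CLEC4C in CTRL were at 0 in all 3 libraries. Over 5 epithelial markers it was 163.5 to 184.4 TPM in siIRF4 and 224.5 to 246.2 TPM in CTRL, with 3 of the 5 lower. The 5 T and NK cell markers, chiefly CD3E, summed to 30.2 to 34.0 TPM in siIRF4 and 12.6 to 14.5 TPM in CTRL. The part of these differences in the falls of IFI27, IFITM3, TRIM22, SAMD9L, IFI16 and OAS3, and in the 23 rises of that line, IFITM1 among them, was not tested. A set of 24 genes was chosen for at least 100 TPM in every MM1 library and a KMS-12-PE mean under 2% of their MM1 mean. That rule limits their share in advance. At the median they stood at 0.169% to 0.217% of their MM1 level in KMS-12-PE siIRF4 libraries and at 0.740% to 0.976% in CTRL libraries. In KMS-12-BM, genes chosen by the same rule for that line stood at 0.453% to 1.2% in siIRF4, where replicate 1 was the highest, and at 0.403% to 0.604% in CTRL. No effector gene called in a KMS-12 line was under 2% of its MM1 level in both groups of that line, and the lowest were OAS3 in KMS-12-PE, at most 7.15%, and NUB1 in KMS-12-BM, at most 7.51%. Effector genes under 2% were low in that line and had little room to be called in any case. A share of MM1 RNA in these libraries was not tested.

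The 6 genes that missed the filter were OASL, IFIT1, IFIT2, RSAD2, CMPK2 and IFI44L, whose highest level in any library lay between 0.192 and 1.61 TPM. RSAD2, or viperin, which makes a chain-terminating nucleotide, had 29, 30 and 31 recovered reads in MM1R siIRF4 libraries, against 3, 5 and 6 reads in MM1R CTRL libraries. In MM1S it had 20, 26 and 14 reads in siIRF4 libraries, against 3, 1 and 4 reads in CTRL libraries. KMS-12-BM had 0 reads in all 6 libraries, which allows up to 0.0757 to 0.101 TPM per library at a limit of 3 reads. CMPK2, its neighbour and a mitochondrial nucleotide kinase, had 68, 38 and 77 reads in MM1R siIRF4 libraries, against 19, 20 and 10 reads in MM1R CTRL libraries. IFI44L had 39, 29 and 36 reads in MM1R siIRF4 libraries, against 1, 2 and 3 reads in MM1R CTRL libraries. When all genes above 0 TPM were fitted, RSAD2 (adjusted p = 1.24e-07), CMPK2 (4.24e-06), IFI44L (3.92e-05) and OASL (0.0224) were called higher in MM1R, and RSAD2 (3.64e-07), CMPK2 (2.45e-05) and IFIT1 (0.0352) in MM1S. By contrast, IFIT1, which binds capped viral RNA, was called lower in KMS-12-PE in that fit (adjusted p = 0.00579), with 2, 3 and 4 reads in siIRF4 libraries, against 10, 13 and 16 reads in CTRL libraries.

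In CTRL cells the lines carried very different amounts of effector mRNA. In KMS-12-BM CTRL cells 27 of the 48 genes were under 0.3 TPM on average, against 11 in KMS-12-PE, 11 in MM1R and 5 in MM1S CTRL cells. The summed level of the 48 genes was 2132 ± 51.7 TPM in MM1R siIRF4 and 1701 ± 27.0 TPM in CTRL libraries (SD, n = 3 each). It was 2435 ± 18.9 TPM in MM1S siIRF4 and 2041 ± 18 TPM in CTRL, 1741 ± 29.3 TPM in KMS-12-BM siIRF4 and 1584 ± 5.30 TPM in CTRL, and 1433 ± 30.5 TPM in KMS-12-PE siIRF4 and 860.1 ± 12 TPM in CTRL. BST2 alone made up 734 to 748 TPM of this sum in KMS-12-BM CTRL libraries.

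Compared by their CTRL libraries, 33 effector genes were higher in the MM1 lines than in the KMS-12 lines and 7 lower (40.4% and 44.8% of all genes). HERC5 stood at 30.4 to 47.1 TPM in the 6 MM1 CTRL libraries, against 0.0524 to 0.480 TPM in the 6 KMS-12 CTRL libraries (5.10 ± 0.06, adjusted p = 1.12e-25). ISG20, at 145.1 to 197 TPM against 4.53 to 12.7 TPM (4.21 ± 0.08, adjusted p = 4.62e-20), and GBP1, at 14.0 to 37.6 TPM against 0 to 0.935 TPM (4.03 ± 0.06, adjusted p = 1.86e-23), differed next most. The reverse held for IFITM1 (2.22 to 5.16 TPM in MM1, against 16.8 to 161 TPM in KMS-12; -3.52 ± 0.12, adjusted p = 2.17e-15), IFITM2 (-3.40 ± 0.13) and ISG15 (-2.35 ± 0.08). ISG15 thus was higher in the lines that held less of the ligase HERC5.

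Within the related pairs, 7 effector genes were higher in MM1R than in MM1S CTRL cells and 19 lower (29.7% and 27.6% of all genes). IFITM3 stood at 0, 0.179 and 0 TPM in MM1R CTRL libraries, against 11.1, 9.91 and 10.3 TPM in MM1S CTRL libraries (-3.43 ± 0.21, adjusted p = 9.12e-11). GBP2 stood at 0.18, 0.0289 and 0.333 TPM in MM1R CTRL libraries, against 2.96, 2.88 and 2.54 TPM in MM1S CTRL libraries (-1.69 ± 0.10, adjusted p = 9.39e-12), and IFI27 differed by -1.55 ± 0.27. MM1S libraries also carried more stromal marker mRNA, 57.5 to 124 TPM in sum in CTRL against 0.608 to 1.01 TPM in MM1R CTRL, with 2 of the 6 markers at 0 in MM1R. Epithelial markers summed to 84.5 to 125.4 TPM in MM1S CTRL, against 3.53 to 5.04 TPM in MM1R CTRL. Myeloid and plasmacytoid markers summed to 41.6 to 76.2 TPM in MM1S CTRL, against 0.461 to 0.752 TPM in MM1R CTRL. T and NK cell markers were higher in MM1R CTRL, 9.30 to 11.1 TPM against 5.67 to 6.95 TPM. The part of these markers in the 3 differences was not tested. OAS3 (0.77 ± 0.08), PARP10 (0.74 ± 0.07) and PARP12 (0.37 ± 0.08) were higher in MM1R than in MM1S.

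In KMS-12-BM against KMS-12-PE CTRL cells, 10 effector genes were higher and 29 lower (37.3% and 40% of all genes). MX2 measured 0, 0.0624 and 0.0934 TPM in KMS-12-BM CTRL libraries, against 139, 142 and 133 TPM in KMS-12-PE CTRL libraries (-7.05 ± 0.10, adjusted p = 1.35e-23). OAS2 measured 50.4, 51.3 and 51.9 TPM in KMS-12-BM CTRL libraries, against 0.608, 0.57 and 0.548 TPM in KMS-12-PE CTRL libraries (5.05 ± 0.05, adjusted p = 9.90e-26). Each line of the pair thus expressed at a high level a gene that the other hardly expressed. PLSCR1 (-3.54 ± 0.07) and NUB1 (-3.51 ± 0.07) were lower in KMS-12-BM, while IFITM2 (4.33 ± 0.18) and IFITM1 (2.90 ± 0.18) were higher there.

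**Figure D4:**
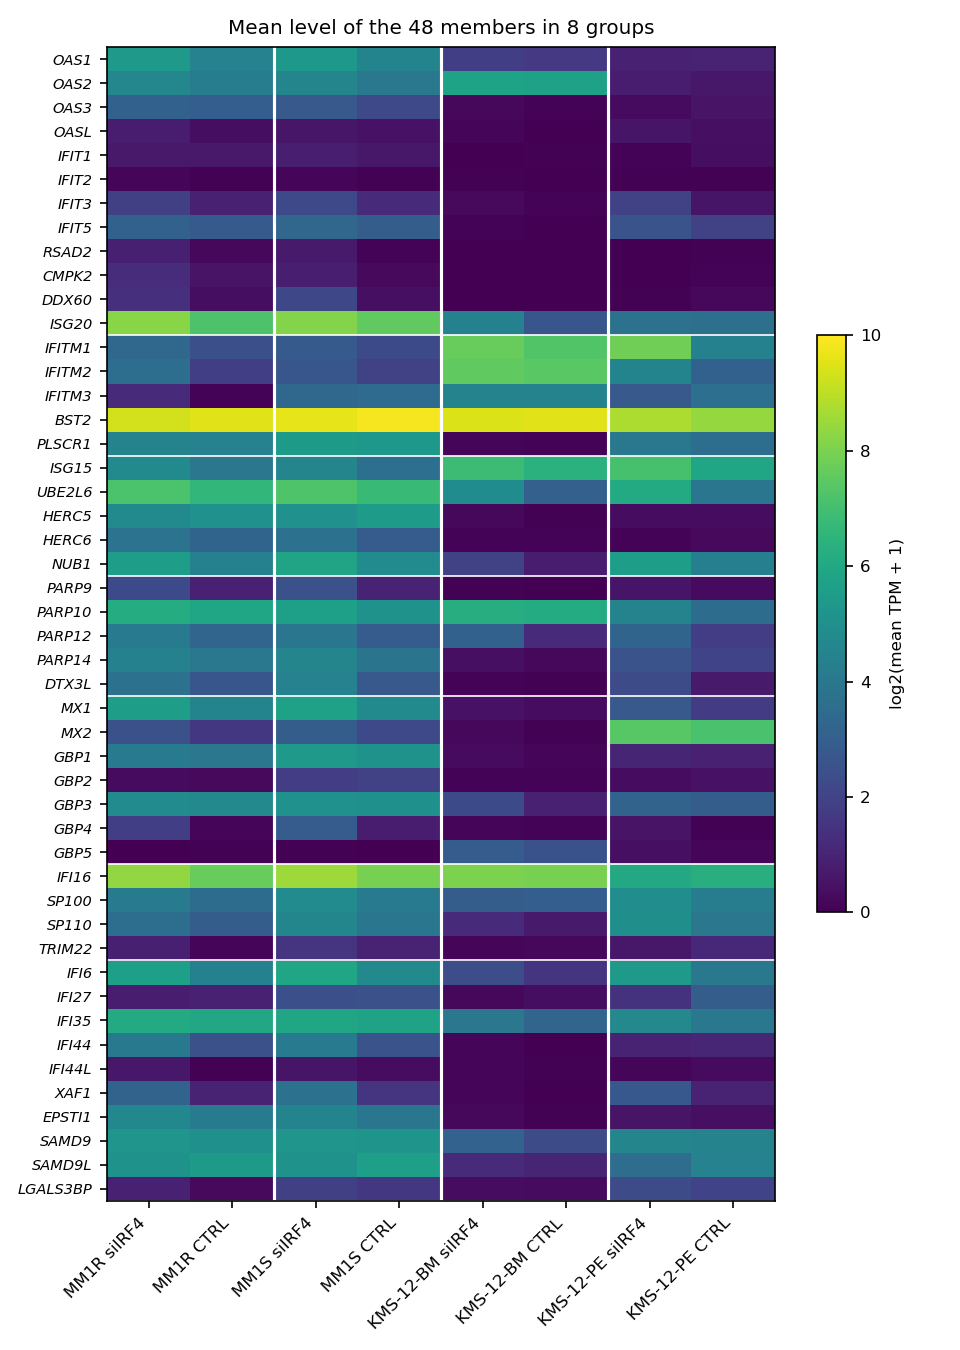
Mean level of all 48 effector genes, as log2(mean TPM + 1), in the 8 groups of 3 libraries, with siIRF4 left of CTRL in each line and thin white lines between roles. The KMS-12-BM columns are dark for most genes but bright for BST2, IFITM1, IFITM2, IFI16 and ISG15, and MX2 reaches 168 TPM in siIRF4 and 138 TPM in CTRL of KMS-12-PE, against at most 6.64 TPM elsewhere.

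The response itself was tested for differences between lines. Between MM1R and MM1S, the effect was higher in MM1R for 2 genes and lower for 3 (1.14% and 1.33% of all genes). IFITM3 (1.27 ± 0.29, adjusted p = 0.0267) and IFITM2 (1.01 ± 0.26, adjusted p = 0.0441) rose more in MM1R, while DDX60 (-0.74 ± 0.12, adjusted p = 0.00153), DTX3L (-0.53 ± 0.12, adjusted p = 0.02) and OAS3 (-0.43 ± 0.11, adjusted p = 0.0466) rose more in MM1S. Of these 5, DDX60 kept its call in all 24 fits with 1 library left out, and the others lost it in 3 to 17 of them. DDX60 lost its call with a pseudocount of 0.1 TPM (adjusted p = 0.36) and with voom on recovered reads (adjusted p = 0.306). It reached 1 TPM in 6 siIRF4 libraries and 0 CTRL libraries. It thus passed the filter where it was high, and its difference is given as a description.

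Between KMS-12-BM and KMS-12-PE, the effect was higher in KMS-12-BM for 10 effector genes and lower for 16 (15.9% and 7.11% of all genes). The largest differences below 0 were those of IFITM1 (-3.05 ± 0.25, adjusted p = 9.97e-08), XAF1 (-1.63 ± 0.14, adjusted p = 5.03e-08) and DTX3L (-1.51 ± 0.12, adjusted p = 1.17e-08), genes whose values per library are given above. The calls of XAF1 and DTX3L were lost with voom on recovered reads (adjusted p = 0.405 and 0.133). The largest above 0 were those of ISG20 (1.64 ± 0.17, adjusted p = 1.23e-06), IFI27 (1.33 ± 0.38, adjusted p = 0.0164) and GBP3 (1.06 ± 0.14, adjusted p = 1.17e-05). IFI27 had no more than 0.435 TPM in KMS-12-BM libraries and fell in KMS-12-PE, and it lost its call with voom (adjusted p = 0.81) and with a pseudocount of 0.1 TPM (adjusted p = 0.477). NUB1 (-0.13 ± 0.10, adjusted p = 0.364) and IFI35 (0.04 ± 0.12, adjusted p = 0.853) did not pass the test of a difference.

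**Figure D5:**
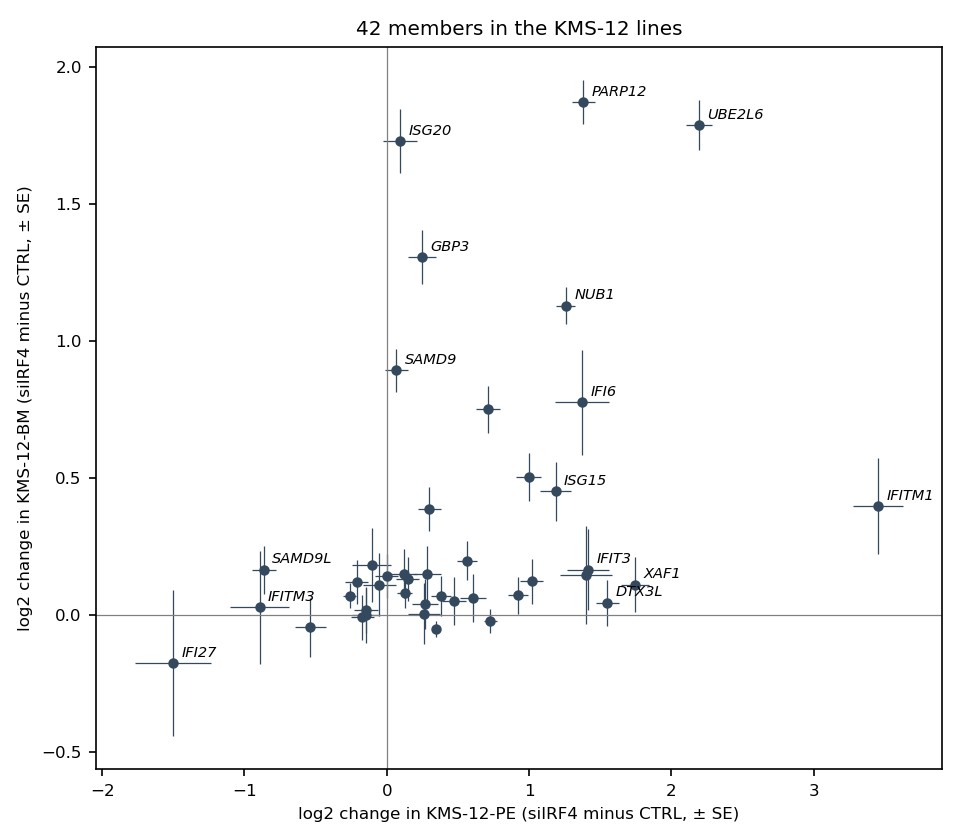
Log2 change of the 42 tested effector genes in KMS-12-PE (horizontal) and KMS-12-BM (vertical), siIRF4 minus CTRL, with bars of 1 SE. UBE2L6, PARP12 and NUB1 lie high on both axes. ISG20 and SAMD9 lie along the vertical axis, GBP3 mainly along it, and IFITM1, XAF1, DTX3L and IFIT3 along the horizontal axis.

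The mean effect of the MM1 lines exceeded that of the KMS-12 lines for 20 effector genes and was below it for 9 (25% and 20% of all genes). On the log2(TPM + 1) scale, GBP4 (1.63 ± 0.09), IFI44 (1.52 ± 0.12, adjusted p = 9.72e-10) and DDX60 (1.46 ± 0.08) had the largest differences above 0, and all 3 were at or under 1.3 TPM in every KMS-12 library. The call of IFI44 was lost with voom on recovered reads (adjusted p = 0.0504). GBP4 and DDX60 each reached 1 TPM in the 6 MM1 siIRF4 libraries and in 0 CTRL libraries, and so passed the filter through the libraries where they were high. Their differences are given as a description, and by ratio of means GBP4 in KMS-12-PE was not under GBP4 in MM1S. UBE2L6 (-1.50 ± 0.09, adjusted p = 7.19e-11), IFITM1 (-1.14 ± 0.18, adjusted p = 3.51e-05) and PARP12 (-0.71 ± 0.08, adjusted p = 3.78e-07) had the largest differences below 0. UBE2L6 and PARP12 rose more in each KMS-12 line than in either MM1 line. IFITM1 did so in KMS-12-PE alone, and its change in KMS-12-BM was under that of both MM1 lines and not called.

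Genes with and without ISRE core letters were found at nearly every number of lines in which genes rose. The ISRE core was present in 3 of 6 genes with a window that rose in all 4 lines, in 9 of 11 that rose in 3, in 4 of 8 that rose in 2, in 7 of 7 that rose in 1 and in 2 of 3 that rose in none. ISG15, PARP12 and IFI6 had it, and UBE2L6, NUB1 and SP110, which rose in as many lines, did not have it in these windows. HERC5, with 3 cores, fell, and XAF1, with none in either of its windows, rose in 3 lines. No test was made of these counts.

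The pathway upstream of the effector genes was read from separate lists. Of 22 interferon genes, 1 reached the filter, IFNG, the type II interferon. It averaged 6.11 ± 2.29 TPM in MM1R siIRF4 libraries and 2.99 ± 0.121 TPM in MM1R CTRL libraries, and 2.14 ± 0.619 TPM in MM1S siIRF4 libraries and 0.928 ± 0.115 TPM in MM1S CTRL libraries (SD, n = 3 each). It rose in both (MM1R 0.79 ± 0.18, adjusted p = 8.87e-04; MM1S 0.69 ± 0.18, adjusted p = 0.0025) and was not called in KMS-12-BM (-0.33 ± 0.18) nor KMS-12-PE (0.12 ± 0.18). Markers of T and NK cells, which are known for making IFNG, summed to 10.8 to 13.3 TPM in MM1R siIRF4 and 9.30 to 11.1 TPM in MM1R CTRL libraries. In MM1S they summed to 8.63 to 13.5 TPM in siIRF4 and 5.67 to 6.95 TPM in CTRL libraries, with 2 of the 5 at 0 in both groups, and their part in the result was not tested. Of 6 receptor chains, 3 rose and 3 fell on average, while 33.1% of all genes rose and 26.5% fell. By line, 2 rose and 0 fell in MM1R (25% and 21.2% of all genes), and 3 rose and 1 fell in MM1S (29.1% and 21.1% of all genes). In KMS-12-BM 1 rose and 2 fell (11.4% and 6.09% of all genes), and in KMS-12-PE 0 rose and 4 fell (15.9% and 22.2% of all genes). IFNGR1, the ligand-binding chain for IFNG, rose in MM1R (0.69 ± 0.06) and MM1S (0.76 ± 0.06), whereas KMS-12-PE showed a fall (-0.33 ± 0.06), while IFNAR2, a chain of the type I receptor, fell on average (-0.35 ± 0.02).

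IRF9, which gives the interferon-activated complex its DNA binding, averaged 37.6 ± 1.87 TPM in MM1R siIRF4 libraries and 22.1 ± 1.22 TPM in MM1R CTRL libraries and rose (0.74 ± 0.08, adjusted p = 1.36e-07), as it did in MM1S (0.75 ± 0.08) and KMS-12-BM (0.27 ± 0.08). Of 6 other interferon regulatory factors tested, 5 rose on average (33.1% of all genes) and 0 fell (26.5% of all genes), with 0 falls at an unadjusted p under 0.05 and with voom. IRF1, an activator that binds the ISRE, rose in all 4 lines, most in KMS-12-BM (0.89 ± 0.07, adjusted p = 2.06e-08). Its rise was 0.77 ± 0.07 in KMS-12-PE, 0.54 ± 0.07 in MM1S and 0.53 ± 0.07 in MM1R. IRF7, which amplifies type I interferon, also rose in all 4 lines. Its rise was 0.69 ± 0.08 in KMS-12-PE (adjusted p = 4.26e-07), 0.66 ± 0.08 in MM1S, 0.53 ± 0.08 in MM1R and 0.28 ± 0.08 in KMS-12-BM (adjusted p = 0.0129). Among 12 sensors and adaptors, 6 rose and 2 fell on average, against the same shares of all genes. In each MM1 line 6 rose and 2 fell, in KMS-12-BM 3 rose and 1 fell, and in KMS-12-PE 4 rose and 3 fell. These counts stand against the shares of all genes by line given for the receptor chains. DHX58 (0.84 ± 0.06), a regulator of RNA sensing, and TLR9 (0.85 ± 0.04), an endosomal DNA sensor, rose, whereas MB21D1 (-0.41 ± 0.03) and TMEM173 (-0.35 ± 0.06), which encode cGAS and STING, fell. Of 5 feedback inhibitors, 3 rose and 1 fell on average, against the same shares of all genes on average and by line. In each MM1 line 3 rose and 0 fell, in KMS-12-BM 0 rose and 1 fell, and in KMS-12-PE 1 rose and 2 fell. USP18, which removes ISG15 from proteins and blocks the type I receptor, averaged 3.88 ± 0.14 TPM in KMS-12-PE siIRF4 libraries and 0.831 ± 0.219 TPM in KMS-12-PE CTRL libraries and rose in that line (1.42 ± 0.15, adjusted p = 1.33e-07), but was not called in MM1R (-0.15 ± 0.15), MM1S (0.14 ± 0.15) or KMS-12-BM (0.11 ± 0.15).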

How the data were processed

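The authors deposited TPM, transcript abundance scaled by gene length and library size, for 25370 genes in 24 libraries. The submitters' processing notes name the build hg19 and the tools STAR (an aligner), featureCounts, FastQC and MultiQC, and the sources used here give no versions, annotation or strand setting. A total of 28 rows with date-like symbols and 1 unnamed row were left out. TPM values within a gene stepped by whole reads, which gave reads (within 0.02) for 20484 genes that cover at least 99.84% of each library's TPM. Replicates differed by more than sampling noise (chi-square over degrees of freedom at least 2.10).

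The 15113 genes with at least 1 TPM in at least 3 libraries were tested on log2(TPM + 1) with limma 3.58.1 (R 4.3.3), 1 fit of 8 group means, trended and robust eBayes, Benjamini-Hochberg adjustment within each of 11 comparisons. Fits were tested on simulated data. IRF4 was also tested by exact permutation. Genes given in full are IRF4, the 3 largest called changes in each direction per comparison, and genes called in opposite directions in different lines. The genes, lists and tests were chosen with earlier results of these data known. Alternatives were a pseudocount of 0.1 TPM, no filter on low values, a filter on the mean (at least 5 TPM), scaling by median of ratios, an eBayes prior with no trend, the replicate block, a separate fit for each line, voom on recovered reads and each library left out. An average without KMS-12-PE was added after the data were seen. Promoter windows came from RefSeq (GRCh38.p14), and no hg19 coordinates were used. Scripts used Python 3.11.15, numpy 2.4.6, pandas 2.3.3 and matplotlib 3.10.9.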

Additional observations from a re-analysis of the deposited data

Results flagged for a closer look

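A test of the difference itself found responses to siIRF4 that differed between lines, and the following are the 3 largest in each direction where as many were called (limma, adjusted p under 0.05). Each value is a difference of log2 changes.

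The response was lower in MM1R than in MM1S for DDX60 (-0.742), DTX3L (-0.529) and OAS3 (-0.432), and higher in MM1R for IFITM2 (1.01) and IFITM3 (1.27). Of these, the 4 other than DDX60 lost their calls in 3 to 17 of 24 fits with 1 library left out. DDX60 lost its call with a pseudocount of 0.1 TPM (adjusted p = 0.36) and with voom on recovered reads (adjusted p = 0.306).

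The response was lower in KMS-12-BM than in KMS-12-PE for IFITM1 (-3.05), XAF1 (-1.63) and DTX3L (-1.51), and higher in KMS-12-BM for GBP3 (1.06), IFI27 (1.33) and ISG20 (1.64). With voom on recovered reads, XAF1 (adjusted p = 0.405), DTX3L (0.133) and IFI27 (0.81) lost their calls, and so did IFI27 with a pseudocount of 0.1 TPM (0.477).

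By the mean of each pair of lines, the response was lower in MM1 than in KMS-12 for UBE2L6 (-1.5), IFITM1 (-1.14) and PARP12 (-0.705). It was higher in the MM1 lines for DDX60 (1.46), IFI44 (1.52) and GBP4 (1.63). For IFITM1 the difference rests on KMS-12-PE, since its change in KMS-12-BM was under that of both MM1 lines. IFI44 lost its call with voom (adjusted p = 0.0504). DDX60 and GBP4 passed the filter on low values through the 6 MM1 siIRF4 libraries, with 0 CTRL libraries at 1 TPM, so their values are a description. No cause of these differences was tested.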

How the results depend on the processing

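Counts of effector genes called in each line and on average stayed within 1.5 times under the alternatives run, with these exceptions. In KMS-12-PE, 3 fell with a mean of at least 5 TPM, where fewer genes were tested, and on average 2 fell with voom on recovered reads. For MM1R minus MM1S, genes with the higher effect numbered 1 with a pseudocount of 0.1 TPM, with no filter and with the replicate block, and 4 with voom. Those with the lower effect numbered 0 with the 0.1 pseudocount and 1 with the mean of at least 5 TPM and with the replicate block. All genes called there numbered 171, 183 and 575 with the pseudocount, the replicate block and voom. For KMS-12-BM minus KMS-12-PE, 7 were lower with voom, and for MM1 minus KMS-12, 12 were higher with the mean of at least 5 TPM and 11 with voom. In CTRL, 4 were higher in MM1R than in MM1S with the replicate block. The average of HERC5 turned to 0.0117 with the 0.1 pseudocount and 0.181 with voom, and that of HERC6 to -0.135 with voom. The cause was not tested.

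With each library left out, the effector genes that rose and fell in MM1R ranged over 29 to 32 and 3, in MM1S over 29 to 31 and 3, in KMS-12-BM over 10 to 13 and 0, in KMS-12-PE over 21 to 24 and 5 to 6. For MM1R minus MM1S they ranged over 0 to 2 and 1 to 3, with 215 to 446 of all genes called. In KMS-12-BM, 1766 to 2811 genes were called, the lowest without siIRF4 replicate 1. Median-of-ratios scaling changed the split of all genes that rose and fell in KMS-12-BM to 1431 and 1423, against 1730 and 920, and the split of effects higher and lower in KMS-12-BM than in KMS-12-PE to 1827 and 1540, against 2402 and 1074. Replicate numbers did not pair libraries: no same-numbered pair correlated above 0.1, and 2 of 12 matched their own number best, so the replicate block is given for its counts alone. Depth limits genes under about 1 TPM, most of them in KMS-12-BM.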
